A study of Homo sapiens with 8 samples.

Results

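CARD14 carrying the variant N737H was compared with wild-type (WT) CARD14 in HaCaT cells, an immortalised human keratinocyte line. The comparison used 4 of the 8 libraries of the series, N737H A and B against WT A and B, with the letter kept as a block. Of 28518 gene rows, 14238 had 10 or more counts in at least 2 of these 4 libraries and were tested. All cells carried a CARD14 knockout and were transfected with 9 ug of a plasmid, CARD14-WT-T2A-eGFP or CARD14-N737H-T2A-eGFP, in which a self-cleaving peptide joins CARD14 to a green fluorescent protein. The other 4 libraries carried R820W or I593T in the same construct and entered the fit for its estimate of spread. Cells positive for GFP were sorted after 24 h, and their total RNA was made into low-input libraries. The series text describes a pair of independent experiments, and A and B are taken to be these, although the labels do not tie them together. The labels do not say whether the knockout line is 1 clone, and knockout cells without plasmid were not analysed here.

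CARD14 is an epithelial scaffold protein that assembles with BCL10 and the protease MALT1 and so activates NF-kB, the transcription factor behind many cytokine, chemokine and antimicrobial genes. Activating mutations of CARD14 are known from psoriasis and pityriasis rubra pilaris, and loss-of-function variants from a severe form of atopic dermatitis. The series text calls the variants studied here hypomorphic, that is, of reduced function. NF-kB and AP-1, another transcription factor family, act on many of the genes that keratinocytes switch on in inflamed or stressed skin.

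The name N737H stands for histidine in place of asparagine. In the GENCODE annotation of GRCh38, that residue of the full-length CARD14 protein is encoded by the codon AAC at chr17:80202410-80202412 on the plus strand, in exon 15 of 21 of 1 of the 3 transcripts annotated as principal and in exon 17 of 23 of the others. The reference coding sequence around it, coding bases 2164 to 2256, is shown because the variant lies in it, with that codon in capitals. The sequence of the plasmid itself was not analysed here.
CARD14 codon of N737H with flanking coding bases: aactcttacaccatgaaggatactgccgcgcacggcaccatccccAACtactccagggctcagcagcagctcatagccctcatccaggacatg

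Total counts of the 4 libraries were 18878300 to 22383534. N737H B differed from the others in how many genes it detected: 21059 genes had at least 1 count, against 17836 to 18855 in the other 7 libraries. In it, 1173 genes were detected that no other library showed (70 to 231 in each of the others), and 79 of its genes had 10 or more counts with fewer than 3 in every other library (0 to 4 in the others). Of the genes tested, 100 passed the count minimum with no WT library at 10, 36 with no N737H library at 10, and 12898 had at least 10 counts in all 4 libraries. The cells carried keratinocyte RNA: the 10 keratinocyte markers summed to 5806 and 6815 CPM (counts scaled to library size) in WT A and B and to 5081 and 4259 in N737H A and B. Fibroblast markers summed to 0.589 to 1.95 CPM, immune-cell markers to 0.906 to 1.95, melanocyte markers to 9.61 to 13.8 and endothelial and kidney markers to 4.26 to 7.28. The immune-cell markers CD3E, CD207 and CD1A, and the melanocyte markers TYR and DCT were at 0 in all 4 libraries. In bulk RNA of this kind, fewer cells that make a transcript and less of it per cell cannot be told apart.

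CARD14 RNA itself differed between the N737H libraries. It stood at 1115 CPM in WT A, 993 in WT B, 451 in N737H A and 998 in N737H B. N737H A was the low library, while N737H B lay between the WT libraries, so the groups overlapped. The difference was -1.31 on the log2 scale within A and 0.01 within B, and the fitted log2 fold change was -0.69 ± 0.37 (SE, n = 2 per group; edgeR's quasi-likelihood test, Benjamini-Hochberg adjusted p = 0.893). Without WT replicate A it was -0.05, and without WT replicate B -1.21. I593T showed the same pattern, with 503 CPM in A and 1381 in B, while both R820W libraries were at 1184 and 1404. The part of the CARD14 level in the differences that follow was not tested. For the genes described below, values are therefore given for A, where CARD14 RNA was lower with N737H, and for B, where it was not.

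MYC, the growth-promoting transcription factor in the series title, was at 733 CPM in WT A, 755 in WT B, 752 in N737H A and 636 in N737H B. N737H B was the lowest and N737H A lay between the WT libraries. Its log2 fold change was -0.11 ± 0.14 (edgeR adjusted p = 0.93). It ranged from -0.23 to -0.01 with 1 library of the 8 left out.

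**Figure D1:**
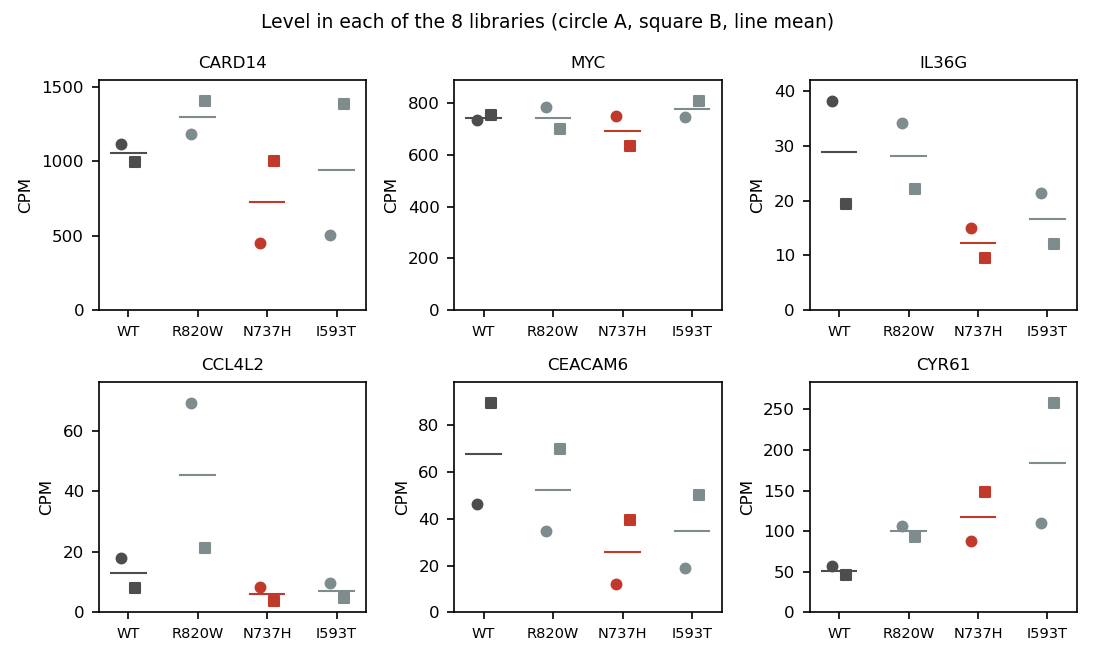
Level in CPM (vertical axis, from 0) of 6 genes in each of the 8 libraries, by the CARD14 construct on the horizontal axis. Circles are A libraries, squares B libraries, and lines the mean of each pair; CARD14 is low in N737H A and I593T A, MYC differs little between libraries, and both N737H libraries lie below both WT libraries for IL36G and CEACAM6 and above them for CYR61.

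The genes that were lower with N737H in both letters and that DESeq2 called included the cytokines IL36G and CSF3, the chemokines CCL20, CXCL3 and CCL4L2, the cornified-envelope genes SPRR1A and SPRR1B, the adhesion gene CEACAM6 and the cell-cycle inhibitor CDKN1A. None of them passed the main test: edgeR's quasi-likelihood test with the block called 0 of 14238 genes (0%) at an adjusted p of 0.05, with 333 lower (2.34%) and 268 higher (1.88%) at an unadjusted p under 0.05. That balance turned in some other fits and held in others. The same counts were 133 and 211 with no replicate block and 209 and 367 with the upper quartile. With only the 4 libraries they were 69 and 103. DESeq2 gave 246 and 253 with the block and 111 and 236 without it. More genes stayed lower with relative log expression (325 and 275) and limma voom (340 and 254). In edgeR, these counts were 484 and 439 with no filter and 393 and 277 with another filter. With WT replicate A left out they were 1169 and 1219, and with WT replicate B left out 557 and 733. With N737H replicate A left out they were 505 and 1156, and with N737H replicate B left out 224 and 100. Leaving out R820W replicate A gave 180 and 125, and leaving out R820W replicate B gave 182 and 121. limma voom also called 0. DESeq2 with the same block called 17 lower genes (0.119%) and 2 higher genes (0.0140%), each of the 19 with 1 direction in both letters. Such a fit favours genes whose letters share a direction. Without the block, DESeq2 called 4 lower genes, CSF3, CDKN1A and SPRR1B among them (DESeq2 adjusted p = 0.0489 for each), and 1 higher gene, AL832891 (0.0425). It did not call CEACAM6, IL36G, DHRS9, PLAU, PI3, SDCBP2, KRT15 and CCL4L2 (adjusted p = 1 for each), PTAFR and PTPRE (0.683), CCL20 (0.653), SPRR1A and CXCL3 (0.241) or AK097957 (0.483). With 2 libraries per group, p-values measure only the spread between these libraries, which the labels do not tie to separate cultures beyond the letters.

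The calls of DESeq2 depended on which libraries were present. With N737H replicate B left out it called 1 gene lower and 0 higher, and with N737H replicate A left out 10 lower and 53 higher. Without WT replicate A it called 47 lower and 95 higher, and without WT replicate B 75 and 102. Leaving out a library that is in neither group also changed the calls: 7 lower without I593T replicate A, 8 without I593T replicate B, 1 without R820W replicate A and 2 without R820W replicate B. CEACAM6 was called in each of these 8 fits, all of which keep the block. All 17 lower genes kept a negative log2 fold change in each of the 8. These fits share libraries with the fit that picked the genes, and each gene was lower in both letters there. The kept sign is therefore no independent support for the calls.

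Across all genes the letters mostly disagreed in direction. N737H was below WT within both A and B for 3163 genes (22.2%) and above WT within both for 2298 (16.1%), so the direction was shared by 5461 genes, or 38.4%. Among 9560 genes with a mean of at least 5 CPM, 10 were lower by over 1 log2 unit in both letters, 2 were higher by as much in both, and 18 passed that size in opposite directions. Over all genes tested, which adds those of low counts, these numbers were 24, 47 and 168. Both N737H libraries lay below both WT libraries for 1703 genes (12.0%) and above both for 1361 (9.56%). This split depended on scaling: 55.6% of the genes without overlap were on the lower side with the trimmed mean of M values, 53.4% with relative log expression, 39.1% with the upper quartile and 29.4% with no scaling factor. The median log2 fold change over all genes was -0.02 in the main fit and 0.05 with the upper quartile, so its sign depended on scaling too.

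**Figure D2:**
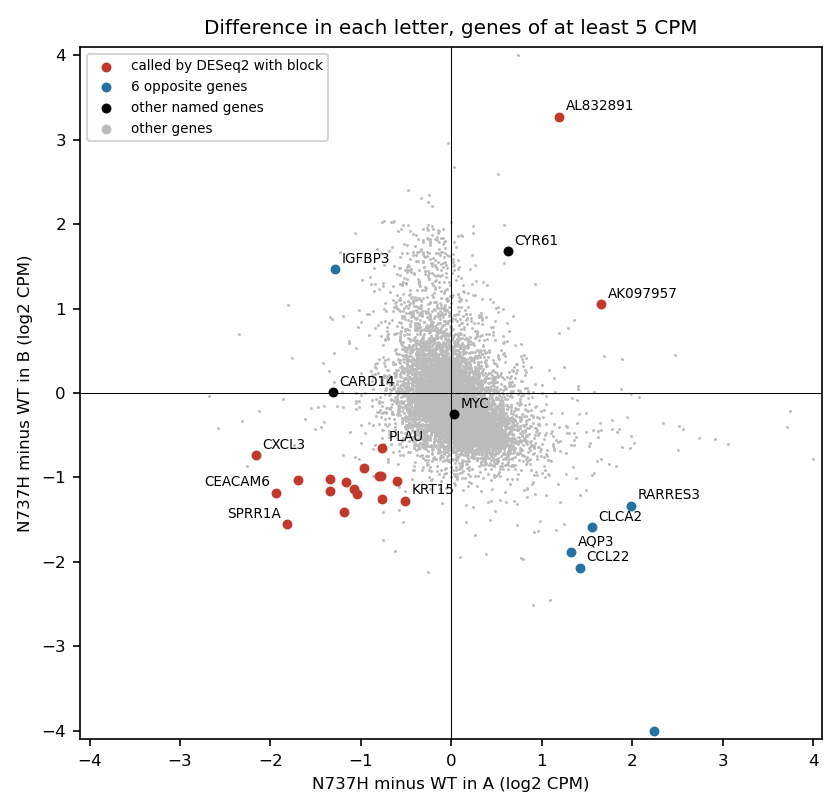
Difference in log2 CPM, N737H minus WT, within A (horizontal axis) and within B (vertical axis) for the 9560 genes with a mean of at least 5 CPM; 3 genes beyond 4 log2 units are drawn at the edge. Most genes lie in the upper left or lower right, where the letters differ in direction. The 17 lower genes called by DESeq2 with the block (red, lower left) are below 0 in both. A fit with the block favours genes whose letters share a direction, so their position follows in part from the call.

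Secreted signals of keratinocytes were among the lower genes that DESeq2 called. IL36G encodes interleukin-36 gamma, a cytokine of the IL-1 family that is abundant in psoriatic skin. It was at 38.2 CPM in WT A, 19.5 in WT B, 14.98 in N737H A and 9.57 in N737H B. Both N737H libraries were below both WT libraries, and A was above B within each group. The log2 fold change was -1.19 ± 0.16 in edgeR (adjusted p = 0.749) and -1.18 ± 0.22 in DESeq2 (adjusted p = 0.000359). Log2 fold changes and standard errors below are edgeR's unless said otherwise, also beside a DESeq2 adjusted p. CSF3 encodes granulocyte colony-stimulating factor, which drives the making of neutrophils. Its levels were 22.9 CPM in WT A, 17.5 in WT B, 8.97 in N737H A and 7.77 in N737H B, again without overlap. The log2 fold change of CSF3 was -1.26 ± 0.19 (DESeq2 adjusted p = 0.00148, edgeR 0.749).

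Chemokine genes were among the DESeq2 calls. CCL20 attracts CCR6-bearing T cells and dendritic cells to the skin. It was at 12.6 CPM in WT A, 10.4 in WT B, 6.11 in N737H A and 4.49 in N737H B. The groups did not overlap, and the difference was of like size in both letters, -1.04 in A and -1.19 in B (fitted -1.13 ± 0.19, DESeq2 adjusted p = 0.0308, edgeR 0.749). CXCL3, a ligand of the neutrophil receptor CXCR2, was at 101 CPM in WT A, 32.8 in WT B, 22.4 in N737H A and 19.7 in N737H B. WT A stood well above the other 3 libraries here, so the difference was -2.16 in A and -0.73 in B. The fitted value of CXCL3 was -1.53 ± 0.35 (DESeq2 adjusted p = 0.0158, edgeR 0.893), and without WT replicate A it was -0.74. CCL4L2 encodes a chemokine nearly identical to CCL4, and reads may have been split between these genes in a way that cannot be checked. Its levels were 17.9 CPM in WT A, 8.14 in WT B, 8.48 in N737H A and 3.66 in N737H B. WT B and N737H A were close and in overlapping order, while within each letter N737H was lower, by -1.07 in A and -1.13 in B (DESeq2 adjusted p = 0.0322, edgeR 0.749).

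Windows of the promoters of CCL20 and CXCL3 are shown because, of the lower genes searched, these hold a match to the NF-kB consensus in their RefSeq promoter. Promoters were the 250 bases before the RefSeq start on GRCh38.p14, and 14 of the lower genes named here had one. The window of CCL20 lies at chr2:227813748-227813787 on the plus strand, with its match starting 79 bases before the start of the gene. That of CXCL3 lies at chr4:74038743-74038783 on the minus strand, where 2 overlapping matches start 79 and 78 bases before the gene. Capitals mark the matches.
CCL20 promoter window: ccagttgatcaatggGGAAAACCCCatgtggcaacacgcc
CXCL3 promoter window: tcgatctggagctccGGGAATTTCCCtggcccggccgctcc
On either strand, the NF-kB consensus was found in 3498 of 35116 RefSeq promoters of this length (9.96%) and in 2 of the 14 lower genes. Of the higher genes named below, LINC00338 held a match as well, starting 175 bases before the gene. These are matches of letters and not measured sites.

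Cornified-envelope genes were the next group. The small proline-rich proteins are cross-linked into the tough envelope that surrounds dead cells of the outer skin. SPRR1A was at 8.75 CPM in WT A, 12.9 in WT B, 2.42 in N737H A and 4.35 in N737H B, from 193, 264, 49 and 89 counts. Both N737H libraries were far below both WT libraries, with a log2 fold change of -1.69 ± 0.30 (DESeq2 adjusted p = 0.00701, edgeR 0.749). SPRR1B was at 29.6 CPM in WT A, 22.1 in WT B, 9.07 in N737H A and 10.7 in N737H B. The groups were again apart, by -1.69 in A and -1.03 in B (fitted -1.38 ± 0.26, DESeq2 adjusted p = 0.00854, edgeR 0.749). Near-identical SPRR paralogs may share reads.

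The AP-1 motif TGANTCA was found in the promoters of SPRR1A, SPRR1B, PTAFR and SDCBP2, 4 of the 14 lower genes searched, and in 2308 of the 35116 RefSeq promoters (6.57%). The windows of SPRR1A, at chr1:152983958-152983994, and of SPRR1B, at chr1:153031047-153031113, both on the plus strand, are shown because these related genes were lower together. The match of SPRR1A starts 108 bases before the gene and those of SPRR1B 141 and 111 bases before it. Capitals mark the matches. The TEAD motif GGAATG was in 3 of the 14 and in 4175 of all promoters (11.9%).
SPRR1A promoter window: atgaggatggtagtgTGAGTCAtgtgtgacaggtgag
SPRR1B promoter window: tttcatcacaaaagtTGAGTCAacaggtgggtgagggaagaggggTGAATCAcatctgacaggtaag

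Other genes of epithelial cells were lower too. CEACAM6, a cell-surface adhesion glycoprotein of epithelia, was at 46.3 CPM in WT A, 89.5 in WT B, 12.03 in N737H A and 39.5 in N737H B. B was above A within each group, and the highest N737H library stayed below the lowest WT library. Its log2 fold change was -1.54 ± 0.21, -1.94 within A and -1.18 within B (DESeq2 adjusted p = 9.12e-06, edgeR 0.749). KRT15, a keratin of basal cells, was at 80.4 CPM in WT A, 146 in WT B, 56.4 in N737H A and 60.3 in N737H B. WT B was the high library for KRT15: the log2 fold change of -0.91 ± 0.21 (DESeq2 adjusted p = 0.0485, edgeR 0.893) was -0.55 without WT replicate B. PI3 encodes elafin, an inhibitor of neutrophil elastase that is also a cornified-envelope precursor. It was at 134 CPM in WT A, 55.2 in WT B, 88.7 in N737H A and 26.8 in N737H B. The groups overlapped because A was above B in each, and within the letters PI3 was lower by -0.60 in A and -1.04 in B (DESeq2 adjusted p = 0.00854, edgeR 0.749).

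CDKN1A encodes the cyclin-dependent kinase inhibitor p21, which halts the cell cycle. It was at 377 CPM in WT A, 339 in WT B, 221 in N737H A and 172 in N737H B. Both N737H libraries were well below both WT libraries, with a log2 fold change of -0.87 ± 0.14 (DESeq2 adjusted p = 0.000359, edgeR 0.749). PLAU encodes urokinase, the plasminogen activator of wound keratinocytes. Its levels were 941 CPM in WT A, 479 in WT B, 554 in N737H A and 306 in N737H B. A was above B in each group, so the groups overlapped, while the difference was -0.77 in A and -0.65 in B (DESeq2 adjusted p = 0.00554, edgeR 0.749).

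A further 4 DESeq2 calls among the lower genes had other roles or fewer reads. DHRS9, a retinol dehydrogenase, was at 7.89 CPM in WT A, 36.0 in WT B, 3.40 in N737H A and 13.5 in N737H B. B was above A in each group, which made the groups overlap, but the difference was -1.19 in A and -1.41 in B (DESeq2 adjusted p = 0.00148, edgeR 0.749). PTAFR, the receptor for platelet-activating factor, was at 37.6 CPM in WT A, 35.0 in WT B, 21.5 in N737H A and 17.7 in N737H B. The groups were apart, by -0.90 ± 0.15 (DESeq2 adjusted p = 0.00701, edgeR 0.749). SDCBP2 (syntenin-2) was at 26.8 and 21.6 CPM in WT A and B and at 15.7 and 8.99 in N737H A and B, without overlap (log2 fold change -1.01 ± 0.18, DESeq2 adjusted p = 0.0161, edgeR 0.749). PTPRE, a tyrosine phosphatase, was at 50.9 and 35.4 CPM in WT A and B and at 26.0 and 19.1 in N737H A and B (-0.93 ± 0.18, DESeq2 adjusted p = 0.0317, edgeR 0.749).

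AHNAK2 and AKR1C1 had p-values as small in edgeR but were not called by DESeq2. AKR1C1, an aldo-keto reductase that inactivates progesterone, was at 18.1 and 14.1 CPM in WT A and B and at 9.86 and 7.08 in N737H A and B. AHNAK2 was at 19.1 and 18.8 CPM with WT and 9.12 and 11.04 with N737H. Neither overlapped, with log2 fold changes of -0.93 ± 0.17 and -0.92 ± 0.17 (DESeq2 adjusted p = 0.077 for each, edgeR 0.749).

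**Figure D3:**
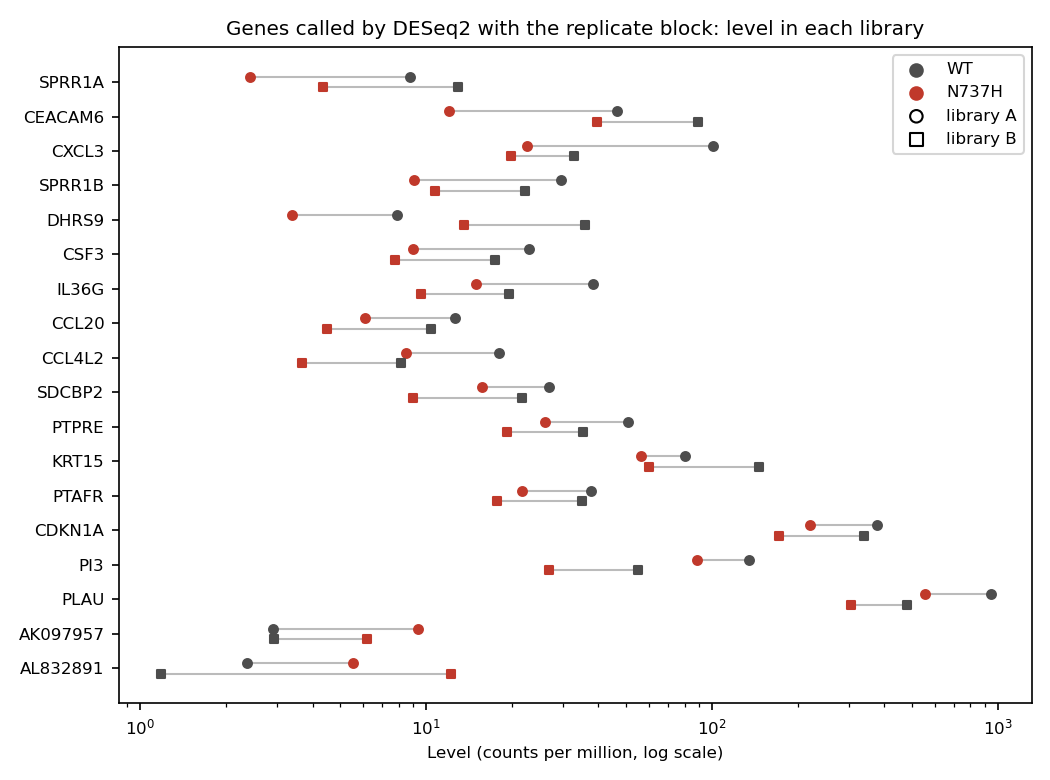
Level in CPM (horizontal axis, log scale) of 18 genes called by DESeq2 with the replicate block in the WT (grey) and N737H (red) libraries, circles for A and squares for B, with a line joining the libraries of 1 letter. In each of the 16 upper rows the N737H point lies to the left of the WT point of the same letter, and in the AK097957 and AL832891 rows to the right.

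The 2 higher genes that DESeq2 called, AK097957 and AL832891, are transcripts without a gene symbol. AK097957 was at 2.90 CPM in WT A, 2.94 in WT B, 9.37 in N737H A and 6.20 in N737H B, from 64, 60, 190 and 127 counts. Both N737H libraries were above both WT libraries, with a log2 fold change of 1.38 ± 0.25 (DESeq2 adjusted p = 0.0214, edgeR 0.749). AL832891 was at 2.36, 1.18, 5.52 and 12.2 CPM in the same order, with N737H B the highest (2.26 ± 0.47, DESeq2 adjusted p = 0.00701, edgeR 0.893); without N737H replicate B its log2 fold change was 1.56.

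Among the other higher genes of smallest p was NUAK1, a kinase related to AMPK, at 4.12 CPM in WT A, 3.28 in WT B, 10.7 in N737H A and 6.06 in N737H B. Its log2 fold change was 1.13 ± 0.23 (edgeR adjusted p = 0.893), and the groups did not overlap. FAM83D, a protein of the mitotic spindle, was at 27.3, 31.8, 41.8 and 56.3 CPM in the same order (0.72 ± 0.17), and ITGBL1, an integrin beta-like protein, at 16.9, 12.7, 25.1 and 25.6 (0.78 ± 0.16). SEMA3D, a secreted semaphorin, SNHG10 and LINC00338, noncoding RNAs, and C19orf60 had log2 fold changes of 0.53 to 0.78, each without overlap. C12orf50 was at 5.12, 6.32, 7.39 and 38.7 CPM, so its value of 1.71 rested on N737H B and was 0.67 without it. None of these 8 genes was called by either test.

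The 6 genes with the largest opposite differences show how far the letters could diverge. CCL22, a chemokine for CCR4-bearing T cells, was at 9.02 CPM in WT A, 110 in WT B, 24.4 in N737H A and 26.0 in N737H B. The N737H libraries were alike and the WT libraries 1 far below and 1 far above them, so that the difference was 1.43 in A and -2.07 in B. AQP3, the water and glycerol channel of the epidermis, also had WT A lowest and WT B highest, with 12.1, 63.0, 30.5 and 17.0 CPM (1.33 in A, -1.88 in B). CLCA2 and RARRES3 had these extremes too, with differences of 1.56 and 1.99 in A and -1.59 and -1.34 in B. IGFBP3, a carrier of insulin-like growth factors, went the other way, at 372, 169, 153 and 467 CPM, or -1.28 in A and 1.47 in B. The read-through transcript C7orf55-LUC7L2 was listed at 0 in N737H B and at 2.72, 7.79 and 13.3 CPM in WT A, WT B and N737H A.

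The gene lists describe how pathways stood as a whole, and their counts are read against those of all 14238 genes tested, of which 7590 had a negative fitted value, 22.2% were lower in both letters and 12.0% had both N737H libraries below both WT libraries. The median log2 fold change of all genes was -0.02, near 0 within A and -0.07 within B. Among the 9560 genes with a mean of at least 5 CPM, 2543 were lower in both letters and 1003 higher in both. The lists differ from all genes in level. The median level was 14.7 CPM over all genes, 163 in the desmosome and junction list and 4.06 in the cornified-envelope list. The shares of all genes are not matched for level. Counts and medians of the lists use the scaling of the main fit unless said otherwise. With the upper quartile, the median of the CARD14 signalling list went from -0.12 to -0.05. That of the cornified-envelope list went from -0.68 to -0.61. Each list was chosen for its subject with earlier results of these data known, so its count is a description and no test of the list.

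Partners of CARD14 had mostly small negative differences. Of 27 tested genes of CARD14 signalling, 21 had a negative fitted value, with a median of -0.12. Of the 27, 11 were lower in both letters (40.7%, against 22.2% of all genes). Without overlap, 6 lay below WT (22.2%, against 12.0% of all genes) and 0 above it. BCL10, the adaptor that CARD14 binds, was at 139 CPM in WT A, 128 in WT B, 108 in N737H A and 93.5 in N737H B. Both N737H libraries were the lower ones, with a log2 fold change of -0.41 ± 0.13 (edgeR adjusted p = 0.893). Among 16 NF-kB subunits and feedback inhibitors, 7 had negative and 9 positive fitted values, with a median of 0.02. TNIP1, an inhibitor of NF-kB that binds the editing enzyme A20, was at 189, 160, 142 and 85.0 CPM in WT A, WT B, N737H A and N737H B (-0.65 ± 0.17, edgeR adjusted p = 0.893). TNFAIP3, which encodes A20, was at 461 CPM in WT A and at 142, 180 and 170 in WT B, N737H A and N737H B. WT A alone was high for TNFAIP3, and its difference was -1.35 in A and 0.26 in B.

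Chemokine genes were mostly lower in B. Of 18 tested, 12 had a negative fitted value, 9 were lower in both letters (50%), 4 lay without overlap below WT (22.2%) and 8 had an unadjusted p under 0.05, none of them higher. The list's median was -0.53, but -0.07 within A and -0.56 within B, and without N737H replicate B it was -0.10. CXCL8, listed as IL8, attracts neutrophils and was at 603 CPM in WT A, 133 in WT B, 298 in N737H A and 119 in N737H B. A was above B in each group, so the groups overlapped, and the log2 fold change was -0.62 ± 0.23. CXCL1, another neutrophil attractant, was at 485, 232, 325 and 199 CPM in the same order (-0.40 ± 0.14). Both had an edgeR adjusted p of 0.893.

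The 27 tested cytokines of the IL-1 family and other secreted factors had 20 negative values, 12 genes lower in both letters (44.4%), 6 without overlap below WT (22.2%) and 9 with an unadjusted p under 0.05, none higher. The median was -0.25, with -0.23 within A and -0.41 within B. IL23A, a subunit of interleukin-23, was at 70.0 CPM in WT A, 28.4 in WT B, 41.4 in N737H A and 21.0 in N737H B (-0.61 ± 0.15). IL1B, the gene of interleukin-1 beta, was at 432, 169, 188 and 150 CPM, with WT A far above the rest and a difference of -1.20 in A and -0.17 in B. IL1RN, the natural antagonist of interleukin-1, was at 220, 480, 188 and 253 CPM (-0.59 ± 0.18). So both the cytokine gene and that of its antagonist had negative values. None of the 3 was called by either test.

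NF-kB targets of cell survival and adhesion had 20 negative values of 23, with 11 lower in both letters (47.8%) but only 3 without overlap (13.0%), near the 12.0% of all genes. ICAM1, the leukocyte adhesion molecule, was at 35.0 CPM in WT A, 29.8 in WT B, 25.4 in N737H A and 18.4 in N737H B (-0.57 ± 0.17). TRAF1, a signalling adaptor induced by NF-kB, was at 21.3, 7.60, 14.2 and 3.52 CPM (-0.82 ± 0.20), lower within each letter and with A above B in each group. Immediate-early and AP-1 genes were divided, 10 positive and 12 negative of 22 (median -0.08), with FOS at 113, 337, 222 and 117 CPM in WT A, WT B, N737H A and N737H B.

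Of 34 cornified-envelope genes, 17 were tested, 13 of them negative, 9 lower in both letters (52.9%) and 4 without overlap below WT (23.5%). The median was -0.68, with -0.84 within A and -0.58 within B. It ran from -0.97 without N737H replicate A to -0.47 without WT replicate A. SPRR2F, another small proline-rich gene, was at 3.85 CPM in WT A, 2.01 in WT B, 1.03 in N737H A and 0.54 in N737H B, which rest on 85, 41, 21 and 11 counts (-1.89 ± 0.36, edgeR adjusted p = 0.749). PPL, which encodes the envelope protein periplakin, had overlapping groups at 34.2, 60.2, 35.4 and 40.3 CPM (-0.27 ± 0.17). A single envelope gene had an unadjusted p under 0.05 in the higher direction, against 6 in the lower.

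Keratins and junctions had many genes without overlap. Among 19 tested keratins, 14 were negative and 8 had both N737H libraries below both WT libraries (42.1%, against 12.0% of all genes), with a median of -0.34. That median was -0.14 within A and -0.62 within B, and -0.13 without WT replicate B. KRT17, induced in wounded and psoriatic skin, was at 1521 CPM in WT A, 1739 in WT B, 1225 in N737H A and 1021 in N737H B (-0.54 ± 0.19). KRT14, the basal keratin, was at 1240, 1424, 1073 and 867 CPM (-0.46 ± 0.17), and KRT8, of simple epithelia, at 1832, 1926, 1662 and 1378 (-0.31 ± 0.17). None of these 3 overlapped, and none was called (edgeR adjusted p = 0.893). Of 27 desmosome and junction genes, 23 were negative, 16 lower in both letters (59.3%) and 11 without overlap below WT (40.7%), with a median of -0.26. DSG3, the desmosomal cadherin that pemphigus antibodies target, was at 303, 360, 235 and 246 CPM (-0.46 ± 0.12). DSP, the desmosomal plaque protein desmoplakin, was at 512, 544, 423 and 394 CPM (-0.37 ± 0.13).

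Genes that anchor keratinocytes to the basement membrane had 14 negative values of 20 and 8 without overlap below WT (40.0%), with a median of -0.21. That median was -0.27 within A and -0.07 within B, -0.33 without WT replicate B but -0.10 when WT replicate A was left out. ITGA5, the fibronectin receptor subunit, was at 129 CPM in WT A, 87.2 in WT B, 64.5 in N737H A and 57.7 in N737H B (-0.81 ± 0.20). LAMB3, a chain of laminin-332, was at 1326, 623, 490 and 470 CPM (-0.98 ± 0.36). For LAMB3 and LAMA3, another chain of that laminin, WT A was the highest of the 4 libraries, and LAMA3 differed by -1.21 in A and 0.01 in B. Plasminogen activators and clade B serpins had 20 negative values of 22 and 8 with an unadjusted p under 0.05, while only 2 lay without overlap (9.09%, against 12.0%). PLAUR, the urokinase receptor, was at 586, 518, 461 and 310 CPM (-0.54 ± 0.14), and SERPINB13, a protease inhibitor of upper epidermis, at 92.0, 254, 68.1 and 125 (-0.74 ± 0.18), lower within each letter.

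Transcription factors of epidermal differentiation had 20 negative values of 24, 14 of them lower in both letters (58.3%) and 6 without overlap below WT (25%), with a median of -0.29 that was similar within A (-0.19) and B (-0.21). TP63, the master regulator of stratified epithelia, was at 374 CPM in WT A, 508 in WT B, 314 in N737H A and 377 in N737H B (-0.34 ± 0.12). GRHL1, a grainyhead-like factor, was at 20.8, 18.1, 15.5 and 12.2 CPM (-0.50 ± 0.16), without overlap. All 10 keratinocyte markers had negative values, 7 of them without overlap (70.0%), beside the sums given above. Whether a difference in keratinocyte state or cell make-up between the groups moved with these lists was not tested.

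Some barrier lists had a negative median that came from B alone. S100 and antimicrobial genes had 16 negative values of 17, but a median of 0.30 within A and -0.87 within B, with 3 lower in both letters (17.6%, against 22.2% of all genes). LCN2, the iron-binding antimicrobial lipocalin, was an exception, at 51.3 CPM in WT A, 56.5 in WT B, 36.1 in N737H A and 25.3 in N737H B (-0.84 ± 0.18, DESeq2 adjusted p = 0.0735, edgeR 0.893). Kallikreins and their inhibitors had 12 negative values of 14, with a median of 0.17 within A and -0.64 within B. Their fitted median of -0.34 became 0.11 without WT replicate B, and that of the S100 list 0.10. KLK10 was lower in both, at 380, 521, 303 and 276 CPM (-0.62 ± 0.18).

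**Figure D4:**
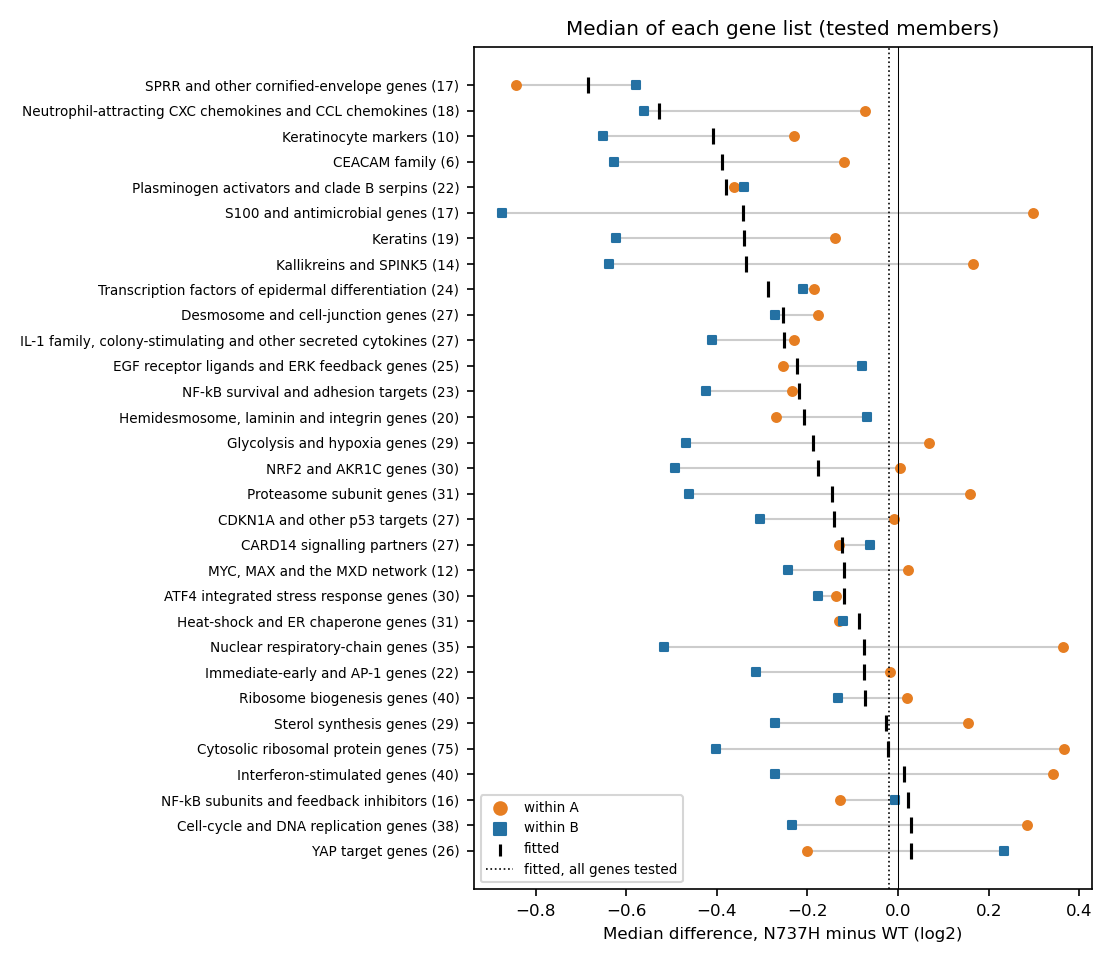
Median difference, N737H minus WT, on the log2 scale (horizontal axis) of each gene list, with the number of tested members in brackets; orange circles are within A, blue squares within B, black bars the fitted value and the dotted line the fitted median of all genes tested. Cornified-envelope genes lie at -0.84 and -0.58 in the 2 letters, while S100 genes, at 0.30 and -0.87, and respiratory-chain genes, at 0.37 and -0.52, lie on opposite sides of 0.

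Growth-factor and p53 genes were mostly below WT without calls beyond CDKN1A. EGF receptor ligands and ERK feedback genes had 17 negative values of 25 (median -0.22, and -0.03 without WT replicate A). HBEGF, a ligand of the EGF receptor, was at 199 CPM in WT A, 81.5 in WT B, 70.0 in N737H A and 60.4 in N737H B (-1.003 ± 0.250), and AREG, another, at 116, 49.7, 48.1 and 44.8 (-0.75 ± 0.28). WT A was far the highest library for both, and the differences in B were -0.43 and -0.15. Of 27 p53 targets, 20 were negative, with a median of -0.14 and -0.01 within A. BAX, which permeabilises mitochondria in apoptosis, had a positive value, at 2.18, 11.4, 7.196 and 15.5 CPM (0.98 ± 0.35), with overlapping groups.

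YAP targets were the list with the most genes of small p in the higher direction, 3 against 1 lower among 26, though its median was 0.03 (-0.20 within A, 0.23 within B). CYR61, a secreted matrix protein induced by YAP, was at 56.5 CPM in WT A, 46.2 in WT B, 87.5 in N737H A and 148 in N737H B. Both N737H libraries were above both WT libraries, with a log2 fold change of 1.13 ± 0.36 (edgeR adjusted p = 0.893). ANKRD1, chosen after its values were seen, was at 4.03, 4.56, 7.74 and 11.3 CPM (1.13 ± 0.39), also without overlap. TGFB2, a growth factor, was at 20.2, 11.4, 36.0 and 13.6 CPM, higher within each letter but with overlapping groups (0.55 ± 0.18). AMOTL1, which restrains YAP, was the 1 lower gene, at 145, 77.1, 83.1 and 66.1 CPM (-0.53 ± 0.18).

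The MYC network and genes of ribosome making, a process that MYC drives, had small median differences. Of 12 tested MYC network genes, 9 had negative values (median -0.12) and none an unadjusted p under 0.05. Single genes of this network ran from -0.46 to 0.94. Of 40 ribosome biogenesis genes, 29 were negative, with a median of -0.07 (0.02 within A, -0.13 within B, and 0 with upper-quartile scaling). In both letters, 15 were lower (37.5%, against 22.2% of all genes) and 7 higher (16.1% of all genes were). Without overlap, 5 lay below WT (12.5%, against 12.0%) and 2 above it (5%, against 9.56%). NPM1, the nucleolar protein nucleophosmin, was at 1988 CPM in WT A, 1756 in WT B, 1878 in N737H A and 1546 in N737H B (-0.13 ± 0.13), with overlapping groups.

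N737H was also set directly against the other variants, in comparisons that use the same N737H libraries. Against R820W, edgeR called 1 gene (0.00702%), CCL4L2, which was at 69.2 CPM in R820W A and 21.4 in R820W B against 8.48 and 3.66 in N737H. The log2 fold change was -2.81 ± 0.21 (edgeR adjusted p = 0.0307). It ran from -3.08 to -2.50 with a library left out, and the adjusted p was over 0.05 without either R820W library, either N737H library or either I593T library. CCL3 and CCL4, its neighbours in the same chemokine family, had -1.64 ± 0.22 and -2.66 ± 0.35 against R820W (DESeq2 adjusted p = 1.28e-07 for each, edgeR 0.402). DESeq2 with the block called 28 genes lower and 2 higher against R820W, and edgeR without the block called 0. At an unadjusted p under 0.05 there were 472 genes against R820W and 288 against I593T.

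Several of the genes lower than in WT were also lower than in R820W. IL36G was at 34.2 and 22.1 CPM in R820W A and B and differed from N737H by -1.20 ± 0.16 (DESeq2 adjusted p = 0.000116, edgeR 0.402). KRT15 was at 125 and 130 CPM in R820W (-1.13 ± 0.21, DESeq2 adjusted p = 0.000511, edgeR 0.547), and CDKN1A at 354 and 327 (-0.80 ± 0.14, DESeq2 adjusted p = 0.000511, edgeR 0.513). CDH2, the gene of N-cadherin, was 1 of the 2 higher genes (0.86 ± 0.15, DESeq2 adjusted p = 0.0212, edgeR 0.53). Of the genes higher than in WT, AK097957 was at 8.98 and 6.60 CPM in R820W A and B (-0.01 ± 0.235). CYR61 was at 107 and 92.7 CPM in R820W (0.181 ± 0.355), and AL832891 at 3.197 and 3.895 (1.295 ± 0.436).

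Against I593T, edgeR called 0 genes (0%) and DESeq2 1, the transcript JH8. The log2 fold change of JH8 was 27.5 in DESeq2 but 8.4 ± 4.3 in edgeR, so no size can be read from it. Levels in I593T A and B were 21.3 and 12.1 CPM for IL36G, 19.2 and 50.3 for CEACAM6, 264 and 271 for CDKN1A, and 13.0 and 18.6 for SPRR1B. In N737H A and B these genes were at 14.98 and 9.57, 12.03 and 39.5, 221 and 172, and 9.07 and 10.7. Each of the 4 was lower in N737H than in I593T within both letters, with log2 fold changes of -0.42 ± 0.16, -0.49 ± 0.20, -0.46 ± 0.14 and -0.67 ± 0.26, and none was called (edgeR adjusted p = 1 for each). Other genes lower than in WT did not all follow. KRT15, at 55.4 and 69.4 CPM in I593T A and B, was lower in N737H within B only (-0.08 ± 0.20). SPRR1A, at 4.67 and 3.82 CPM in I593T, was lower in N737H within A only (-0.40 ± 0.31). AKR1C1, at 9.13 and 6.76 CPM in I593T, was higher in N737H within both letters (0.09 ± 0.17). Of the genes higher than in WT, AK097957 was at 6.57 and 4.41 CPM in I593T A and B (0.50 ± 0.24). AL832891 was at 7.10 and 7.55 CPM in I593T (0.24 ± 0.42), and CYR61 at 110 and 258 (-0.61 ± 0.35). A p that misses the threshold does not show that these variants act alike.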

How the data were processed

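The authors deposited raw read counts, whole numbers, for 8 libraries. hg19, FastQC, MACS2 and DESeq2 are named in the submitters' processing notes without roles. How reads were aligned and assigned to genes, and whether strand was used, is not given in the sources used here. The table names 28518 genes. The comparison, the gene lists and the genes named were chosen with earlier results of these data known.

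Genes with at least 10 counts in at least 2 of the 4 N737H and WT libraries were kept. Counts of all 8 libraries were scaled by TMM (trimmed mean of M values) before the fit with edgeR 4.0.16 in R 4.3.3, by the quasi-likelihood method, with group and letter as terms (residual degrees of freedom: 3). All tests are two-sided, with Benjamini-Hochberg adjustment over 14238 genes and a threshold of 0.05. A standard error is edgeR's, the log2 fold change divided by the root of its F statistic, unless DESeq2 is named for it. CPM values use the scaled library sizes. Differences within a letter use log2 CPM (prior count 2). DESeq2 1.42.0, limma 3.58.1 voom, other scalings, other filters, no block and each library left out were alternatives. The fit was also run on simulated counts, which were drawn without a letter effect and so cannot show how the block behaves in these data. Every pair of libraries differed by more than sampling noise (smallest chi-square per gene 6.17).

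The text names CARD14, MYC, the 10 higher and 15 lower genes of smallest p that reach 5 CPM on average and share 1 direction in both letters, genes called by edgeR or DESeq2, the 6 most opposite genes and, in each list, members called, of smallest p or of highest CPM; some genes that this rule names, 1 of the DESeq2 calls among them, are not reported here. List members under other symbols in the table were found through RefSeq synonyms. Promoters are RefSeq's, on GRCh38.p14, and the CARD14 codon is from GENCODE on GRCh38; no coordinate of the authors' build was used.

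The letter was checked as a pairing. Deviations from the group means correlated by 0.017 between WT and N737H and by 0.338 to 0.442 between other groups with the same letter, and A and B libraries lay apart on principal component 1 (34.4% of the variance). The block was kept because the comparison was defined with it. The common biological coefficient of variation was 0.188 with the block and 0.256 without.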

Additional observations from a re-analysis of the deposited data

How the results depend on the processing

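With no replicate block, edgeR called 0 genes in either direction, as it did for N737H against R820W (1 with the block), and DESeq2 called 4 lower and 1 higher, against 17 and 2 with the block. Against R820W, DESeq2 with the block called 30 genes, and against I593T 1. With each of the 8 libraries left out in turn, edgeR's calls against WT ran from 0 to 12 lower and from 0 to 28 higher, all of them without WT replicate B. Those against R820W ran from 0 to 3, and those against I593T from 0 to 1. DESeq2's calls with the block ran from 1 to 75 lower and from 0 to 102 higher. The genes without overlap numbered 3372 to 5483 below and 3132 to 4568 above when 1 of the 4 libraries was left out. These alternatives for the R820W and I593T comparisons, for DESeq2 and for the genes without overlap were added after seeing the data.

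The 6 opposite genes changed sign in some of these fits. They had been chosen for large opposite differences in A and B, so a change of sign with a library left out follows from that choice. C7orf55-LUC7L2 was at 0.34 with no replicate block and at 0.34 in DESeq2 with no block, and ran from -10.02 to 1.74 with a library left out (it is listed at 0 in N737H B, so that these values are no bound). RARRES3 was at -0.30, -0.28 and, in limma voom, -0.046, and ran from -0.84 to 1.65. IGFBP3 was at 0.20 with no replicate block, 0.22 in DESeq2 with no block, 0.087 in limma voom and 0.14 with only the 4 libraries, and ran from -1.06 to 1.31. CLCA2 ran from -1.36 to 1.42, CCL22 from -1.62 to 1.08 and AQP3 from -1.39 to 0.98. Why the letters differed in these genes was not tested. Of the other values of named genes under alternatives, 579 kept direction and side of the threshold and 27 moved past it. Relative log expression, the upper quartile, no filter, another filter and only the 4 libraries left edgeR at 0 calls.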

Other observations

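Genes of cell metabolism had opposite medians in A and B. Of 35 nuclear respiratory-chain genes, 0 were lower with N737H within A and 34 were lower within B, with medians of 0.37 and -0.52. ATP5B, a subunit of ATP synthase, was at 1375 CPM in WT A, 1963 in WT B, 1771 in N737H A and 1373 in N737H B. Of 75 cytosolic ribosomal protein genes, 2 were lower within A and 69 within B (medians 0.37 and -0.40), with RPS3 at 1359, 2098, 1861 and 1428 CPM in the same order. In both genes the WT libraries were the extremes or near them, WT A low and WT B high. Proteasome genes (0.16 and -0.46), interferon-stimulated genes (0.34 and -0.27) and cell-cycle genes (0.28 and -0.23) had the same pattern. ISG15, an interferon-induced modifier protein, was at 782, 2187, 1397 and 1296 CPM. None of these 5 lists had more than 1 gene with an unadjusted p under 0.05.

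Lists of stress and redox genes had more negative than positive values, and those of the NRF2 and glycolysis lists came mainly from B. NRF2 targets and AKR1C genes had 23 negative values of 30 and 7 without overlap below WT (23.3%), with medians of 0.005 within A and -0.49 within B. Of them, FTH1, the ferritin heavy chain, was at 12750, 16520, 11140 and 9755 CPM (-0.48 ± 0.17) and HMOX1, heme oxygenase, was at 8.11, 3.14, 2.76 and 2.20 (-1.09 ± 0.35). Glycolysis and hypoxia genes had 28 negative values of 29 and 10 without overlap (34.5%), with medians of 0.07 within A and -0.47 within B. NDRG1, a hypoxia-induced gene, was at 15.95, 25.8, 10.7 and 9.87 CPM (-0.98 ± 0.22). Of 30 genes of the ATF4 stress response 22 were negative, with DDIT4, an inhibitor of mTOR signalling, at 190, 298, 176 and 145 CPM (-0.57 ± 0.21). Sterol synthesis genes had 18 negative values of 29, but medians of 0.16 within A and -0.27 within B, and 3 were lower in both letters (10.3%, against 22.2% of all genes). None of the genes named here was called by edgeR or DESeq2.

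ITGAM, an integrin of myeloid cells, was the only immune-cell marker that passed the count minimum, at 3, 3, 10 and 24 counts in WT A, WT B, N737H A and N737H B. The other defining immune-cell markers stayed under 1 CPM in all 4 libraries.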
